A study of Mus musculus with 9 samples.

Results

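This section compares the effect of losing IκBα between cells sorted as EphB2-positive and cells sorted as EphB2-negative. RNA-seq of all 9 libraries of the series entered a single fit by genotype and sort, and the comparison was (KO minus WT in EphB2-positive cells) minus (KO minus WT in EphB2-negative cells). All mice were C57BL/6, and the intestinal cells were taken at postnatal day 6. The groups were wild type (WT) EphB2-positive (n = 2), IκBα knockout (KO) EphB2-positive (n = 3), WT EphB2-negative (n = 2) and KO EphB2-negative (n = 2). The sort used an antibody that the labels call anti-human EphB2. The labels give the knockout only as IkBa KO, with no allele, promoter or Cre, and do not say whether animals were pooled. Separate animals are not stated for the replicates either, and p-values here therefore describe only how far these samples spread, which may be technical.

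IκBα, the product of Nfkbia, keeps NF-κB dimers out of the nucleus until a signal has it degraded. The intestinal epithelium renews from stem cells at the crypt base, whose daughters divide, move up the villus and mature into absorptive enterocytes or secretory cells. EphB2 is a receptor tyrosine kinase carried by cells low in this order and lost as they mature, so a sort on EphB2 splits the epithelium roughly by maturity, and cells without EphB2 that are not epithelial can enter the EphB2-negative fraction. A gene with a difference above 0 was higher in KO relative to WT in EphB2-positive cells than in EphB2-negative cells, and a gene below 0 the reverse. A difference can arise from effects of opposite sign or from effects of the same sign and unequal size, so the log2 fold change of KO against WT is given in each sort as a description, and only their difference was tested.

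Between 1503972 and 2074076 reads per library fell in genes, and 13120 to 15131 genes were detected. For Nfkbia, the targeted gene, WT libraries gave 58 and 163 reads (EphB2-positive) and 47 and 114 reads (EphB2-negative). All 5 KO libraries gave 0, so its KO effects cannot be compared between the sorts. Ephb2 (chromosome 4, 136647539 to 136835988, minus strand of GRCm38) stood at 142 and 160.3 CPM (read counts scaled to library size and composition) in WT and 182, 183 and 171 CPM in KO EphB2-positive libraries. In EphB2-negative libraries it stood at 125 and 66.8 CPM in WT and 30.7 and 34.4 CPM in KO. The KO effects were unequal, with log2 fold changes of 0.24 and -1.56 and a difference of 1.80 ± 0.35 (edgeR's quasi-likelihood test, Benjamini-Hochberg adjusted p = 0.015). The epithelial genes Epcam, Cdh1, Vil1, Krt8 and Krt18 had at least 850 reads in every library.

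WT EphB2-negative replicate 1 stood apart from the other library of its group. Along component 1 of the log2 CPM, which set the sorts apart (62.7% of the variance), it lay at -12.4 against 66.7 for replicate 2. Counts of this pair differed with a chi-square of 25.6 per degree of freedom over genes, while the 5 remaining pairs of replicates gave 1.95 to 4.40. Summed stem cell genes stood at 3232 and 1219.5 CPM in replicates 1 and 2 of that group, against 633 and 779 CPM in KO EphB2-negative libraries. Summed absorptive enterocyte genes stood at 17057 and 39037 CPM against 39229 and 57125 CPM in the same libraries. Counts of called genes are therefore also given without this library for some lists, mainly where they moved by more than 1.5 times. They cover the members tested with all libraries. That fit left replicate 2 as the only WT EphB2-negative library and called more of all genes tested in both directions. A rise in the count of a list may thus not be particular to that list. The shares of all genes printed beside lists, 6.54% above and 5.81% below 0, are from the fit with all libraries. In bulk samples fewer cells of a type and less RNA per cell cannot be told apart, so each KO effect may hold both.

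**Figure D1:**
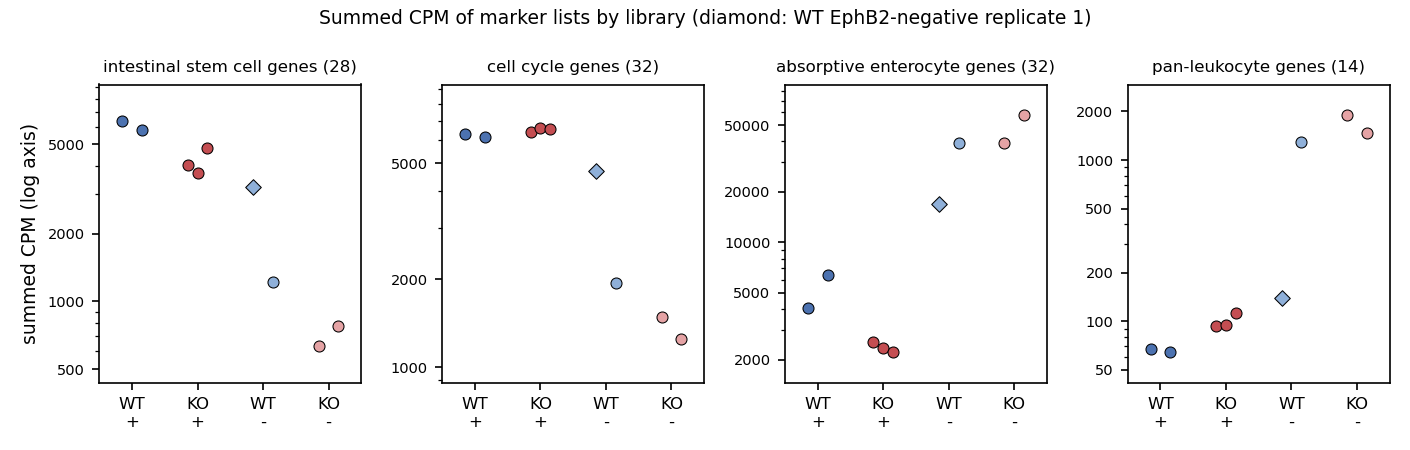
Summed CPM (log axis) of 4 marker lists, with the number of genes in brackets, in each of the 9 libraries by genotype and sort (+ for EphB2-positive, - for EphB2-negative). The diamond, WT EphB2-negative replicate 1, lies between the EphB2-positive libraries and the other EphB2-negative libraries for all 4 lists.

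Of 11577 genes tested, 1430 (12.4%, the genes called below) differed between the sorts in their KO effect at an adjusted p under 0.05. Of these, 757 (6.54% of genes tested) lay above 0 and 673 (5.81%) lay below 0, and 3529 genes had an unadjusted p under 0.05. The median difference over all genes tested was 0.06, with median KO effects of -0.01 in EphB2-positive and -0.09 in EphB2-negative cells. The 757 genes above 0 had median effects of 0.37 in EphB2-positive and -1.02 in EphB2-negative cells. The 673 genes below 0 had median effects of -0.53 and 0.86. The EphB2-negative side thus held the larger median effect in both directions. Without WT EphB2-negative replicate 1 the medians in EphB2-negative cells were -0.80 and 0.80, and 710 of the 757 and 650 of the 673 were called again in the same direction among 2339 calls.

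By a fold of 1.5 in each sort, the widest classes among the 1430 called genes were those past the fold in EphB2-negative cells alone, with 499 genes lower in KO and 285 higher. In EphB2-positive cells alone 158 passed the fold with lower and 89 with higher levels in KO. Effects of opposite sign past the fold in both sorts formed 2 classes. In the first, 140 genes were lower in KO in EphB2-positive and higher in KO in EphB2-negative cells (9.79% of the called genes, where this class holds 2.94% of all genes tested), and 111 of the 140 kept this class without WT EphB2-negative replicate 1. The reverse pattern was seen for 102 genes (7.13% of the called genes against 1.68% of genes tested), of which 74 kept the class. Another 35 genes were lower and 37 higher in KO in both sorts by unequal amounts, and 85 stayed under the fold in both. The difference itself chose these genes, so the shares are a description.

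**Figure D2:**
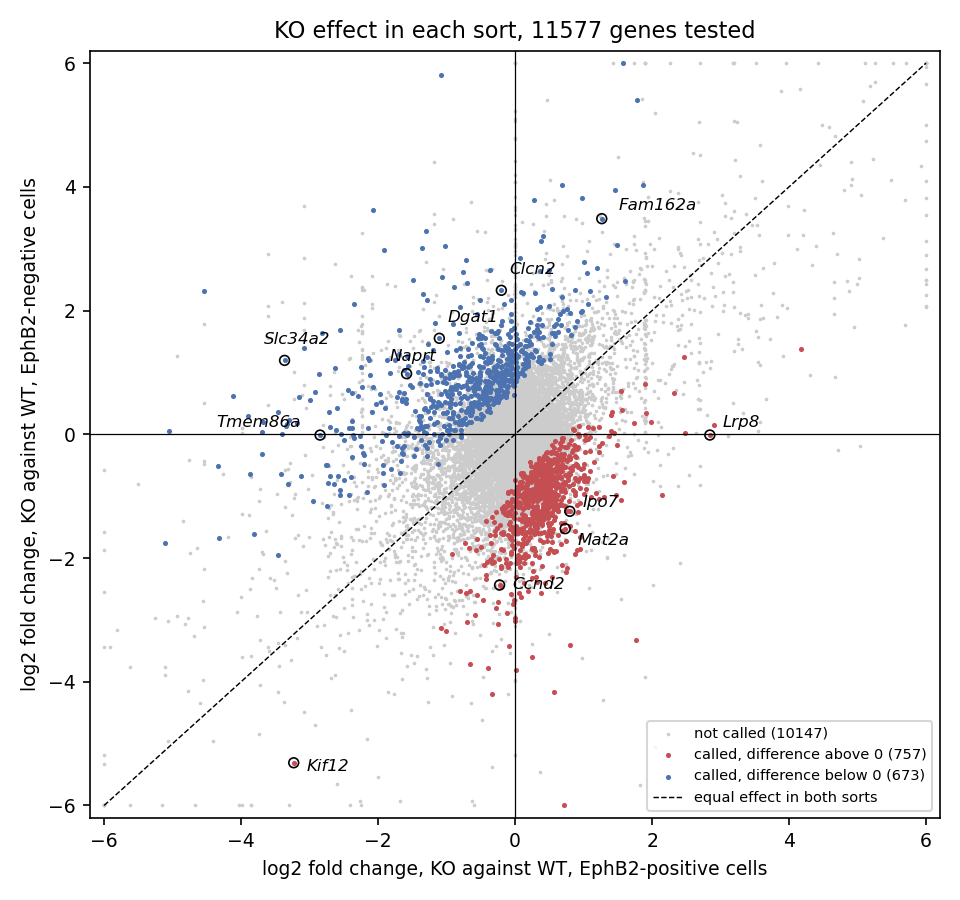
Log2 fold change of KO against WT in EphB2-positive cells (horizontal) and EphB2-negative cells (vertical) for each of 11577 genes, with values beyond 6 drawn at the edge. Red and blue points are the 757 and 673 genes whose difference passed; the dashed line marks equal effects, and circles mark 11 genes named in the text.

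The number of calls rested on single libraries. It was 32 without WT EphB2-positive replicate 2, 40 without KO EphB2-negative replicate 2 and 251 without WT EphB2-positive replicate 1, and it was 3996 without WT EphB2-negative replicate 2. Without KO EphB2-positive replicate 1, 2 or 3 it was 538, 404 or 602, and without KO EphB2-negative replicate 1 it was 500. No called gene had its difference change sign in any of the 9 fits that each left out a library. In these 9 fits and 9 other settings 25 genes kept their call and direction each time, 5 above and 20 below 0. The genes described next come first for that reason. At their largest adjusted p over the alternatives, many kept genes lay just under the cutoff of 0.05. Several genes that lost a call lay just above it, so kept and lost calls are not a measure of strength. Over the 18 alternatives the difference ran from 1.84 to 2.17 for Ipo7, which kept its call. For Cep55, which lost a call, it ran from 2.42 to 3.41.

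Among genes lower in KO in EphB2-positive and higher in KO in EphB2-negative cells, the 6 of smallest p were Naprt, Smim24, Dgat1, Slc34a2, Smpd2 and Prap1, and each kept its call in all 18 alternative fits. Naprt (chromosome 15, 75890956 to 75894481, minus strand) encodes an enzyme of the pathway from nicotinic acid to NAD. It stood at 60.9 and 59.2 CPM in WT and 19.4, 21.0 and 19.5 CPM in KO EphB2-positive libraries. EphB2-negative libraries held 92.2 and 88.6 CPM in WT and 170.2 and 187 CPM in KO. KO libraries were thus below both WT libraries in one sort and above both in the other, with no overlap. Genes were chosen by small p or kept calls from these same values, which favours such separation. Here and below it is a description, and its share over all genes tested is not given. The KO effects were -1.58 ± 0.15 and 0.98 ± 0.14, and the difference was -2.56 ± 0.20 (edgeR adjusted p = 0.0025), the smallest p of the comparison.

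Slc34a2 (chromosome 5, 53038081 to 53071664, plus strand), the sodium-phosphate cotransporter of the brush border, had the widest difference of these 6 genes. Its levels were 108 and 142 CPM in WT and 16.0, 10.0 and 10.8 CPM in KO EphB2-positive cells, and 197 and 361 CPM in WT and 499.7 and 776 CPM in KO EphB2-negative cells. The groups did not overlap within either sort, and the difference was -4.56 ± 0.47 (edgeR adjusted p = 0.0068). Dgat1 (chromosome 15, 76502015 to 76511953, minus strand), which joins the last fatty acid to triglyceride, stood at 127 and 172 CPM in WT and 62.7, 74.3 and 70.4 CPM in KO EphB2-positive cells. EphB2-negative cells held 216 and 229 CPM in WT and 581 and 723 CPM in KO. Its difference of -2.66 ± 0.26 (edgeR adjusted p = 0.0048) came from effects of -1.11 and 1.55. The WT EphB2-negative replicates, which stood apart over all genes, lay close together for Dgat1 and Naprt.

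Smim24, a small membrane protein, had effects of -1.62 and 1.03 in EphB2-positive and EphB2-negative cells. The neutral sphingomyelinase gene Smpd2 had effects of -1.02 and 1.04, and Prap1, which encodes a secreted proline-rich protein of the epithelium, -0.99 and 1.33. All 3 lay lower in every KO than in every WT EphB2-positive library and higher in every KO than in every WT EphB2-negative library. The choice by smallest p favours this.

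**Figure D3:**
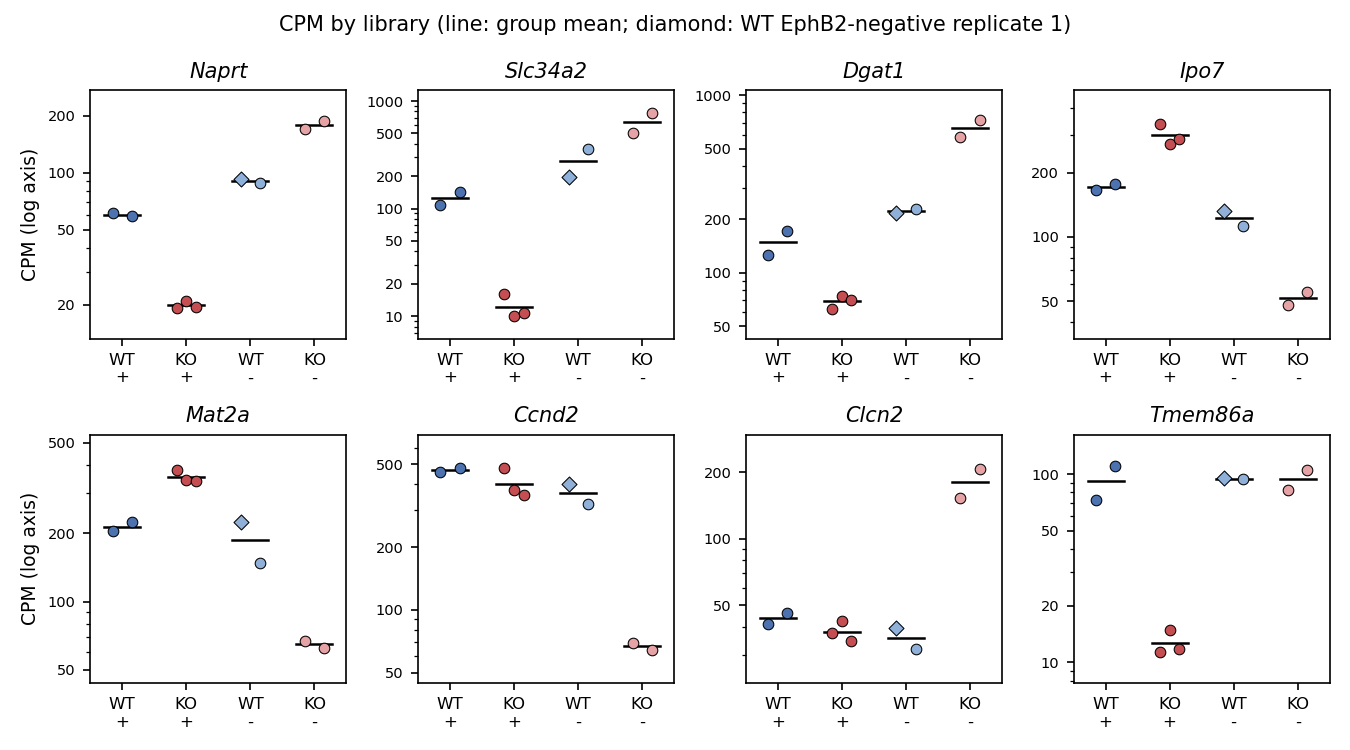
CPM (log axis) of 8 genes in each library by genotype and sort (+ for EphB2-positive, - for EphB2-negative), with lines at group means and a diamond for WT EphB2-negative replicate 1. Naprt, Slc34a2 and Dgat1 are lower in KO on the left and higher in KO on the right of each panel; Ipo7 and Mat2a show the reverse; Ccnd2 and Clcn2 move in EphB2-negative cells and Tmem86a in EphB2-positive cells.

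The reverse pattern was led by Ipo7 and Mat2a. Ipo7 (chromosome 7, 110018274 to 110056609, plus strand), the nuclear import receptor importin 7, stood at 167 and 178 CPM in WT and 338, 272 and 288 CPM in KO EphB2-positive cells. EphB2-negative cells held 132 and 113 CPM in WT and 48.0 and 55.4 CPM in KO. The groups did not overlap in either sort, and the difference was 2.04 ± 0.23 (edgeR adjusted p = 0.0068). Mat2a (chromosome 6, 72432799 to 72439558, minus strand), which makes S-adenosylmethionine, the methyl donor of the cell, stood at 204 and 223 CPM in WT and 382, 342 and 340.4 CPM in KO EphB2-positive cells. Its EphB2-negative levels were 225 and 148 CPM in WT and 67.2 and 62.4 CPM in KO, with a difference of 2.26 ± 0.28 (edgeR adjusted p = 0.0069).

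Cep55, which acts in the separation of daughter cells at the end of division, had effects of 0.87 and -1.94. Trmt6, a subunit of a tRNA methyltransferase, had effects of 1.0 and -0.69 and Nol11, a nucleolar factor of ribosomal RNA synthesis, 0.60 and -1.06. Ipo7 and Mat2a kept their calls without any single library. Cep55 lost its call without WT EphB2-positive replicate 2, and Trmt6 and Nol11 lost theirs without that library and without KO EphB2-negative replicate 2.

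Among genes past the fold in EphB2-negative cells alone, Ccnd2 (chromosome 6, 127125162 to 127152193, minus strand), the G1 cyclin D2, had the smallest p of those lower in KO and kept its call in all 18 alternatives. It stood at 461 and 482 CPM in WT and 478, 377 and 355 CPM in KO EphB2-positive cells, where the groups overlapped. In EphB2-negative cells it stood at 403 and 323 CPM in WT and 69.7 and 64.3 CPM in KO, with no overlap. The difference was 2.21 ± 0.26 (edgeR adjusted p = 0.0069). Ppat, the enzyme of the committed step of purine synthesis, had effects of 0.25 and -2.32, and Aasdhppt, which attaches the phosphopantetheine arm to carrier proteins, 0.29 and -1.88. Ppat lost its call without WT EphB2-positive replicate 2 or KO EphB2-negative replicate 2, and Aasdhppt without the former.

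Clcn2 (chromosome 16, 20702964 to 20717746, minus strand), a chloride channel, had the smallest p among genes higher in KO past the fold in EphB2-negative cells alone. Its levels were 41.3 and 46.4 CPM in WT and 37.4, 42.4 and 34.4 CPM in KO EphB2-positive cells, and 39.7 and 31.9 CPM in WT and 154 and 207 CPM in KO EphB2-negative cells. The 7 libraries of the other 3 groups lay close together and the 2 KO EphB2-negative libraries lay above all of them (difference -2.53 ± 0.28, edgeR adjusted p = 0.0068). Gjb1, the gap junction protein connexin 32, had the same form. It stood at 135 and 138 CPM in KO and 29.7 and 26.1 CPM in WT EphB2-negative cells, against 33.4, 40.9 and 36.5 CPM in KO and 31.4 and 37.0 CPM in WT EphB2-positive cells. Ckmt1, the mitochondrial creatine kinase, had effects of -0.26 and 1.66, and Ckb, the cytosolic enzyme, had -0.55 and 1.94. Clcn2, Gjb1 and Ckmt1 kept their calls in all alternatives, and Ckb lost its call without WT EphB2-positive replicate 2 or KO EphB2-negative replicate 2.

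Tmem86a and Amn led the genes past the fold in EphB2-positive cells alone. Tmem86a (chromosome 7, 47050601 to 47054777, plus strand), a lysoplasmalogenase, stood at 73.2 and 111 CPM in WT and 11.3, 14.8 and 11.8 CPM in KO EphB2-positive cells. The EphB2-negative groups overlapped, at 95.4 and 93.9 CPM in WT and 82.5 and 105 CPM in KO. The difference was -2.83 ± 0.32 (edgeR adjusted p = 0.0068). Amn (chromosome 12, 111271095 to 111276426, plus strand), the partner of cubilin in endocytosis by suckling enterocytes, stood at 89.9 and 101 CPM in WT and 18.0, 20.5 and 17.5 CPM in KO EphB2-positive cells. Its levels in EphB2-negative cells, 119 and 154 CPM in WT and 118 and 145 CPM in KO, overlapped, and the difference was -2.29 ± 0.26 (edgeR adjusted p = 0.0068). Cst6, a cysteine protease inhibitor, Slc6a4, the serotonin transporter, and Mettl7b, a methyltransferase, had effects of -3.35 and 0.13, -2.50 and -0.09 and -2.99 and 0.55.

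In the other direction, Lrp8 (chromosome 4, 107802261 to 107876840, plus strand), a receptor of the LDL receptor family, stood at 6.88 and 7.89 CPM in WT and 61.4, 51.9 and 47.3 CPM in KO EphB2-positive cells, with no overlap. In EphB2-negative cells its levels were 8.22 and 11.1 CPM in WT and 8.32 and 10.8 CPM in KO, so the effects were 2.84 and -0.01 (difference 2.86 ± 0.40, edgeR adjusted p = 0.008). Mtap, of the methionine salvage pathway, had effects of 2.48 and 0.01. Tmprss2, a serine protease of the epithelial surface, had effects of 1.22 and -0.19, and Ddx3x, an RNA helicase, 0.67 and -0.52. Of the 9 genes named for EphB2-positive cells alone, 3 (Tmem86a, Cst6 and Amn) kept their calls without WT EphB2-positive replicate 2, and 6 without KO EphB2-negative replicate 2 (not Mtap, Tmprss2 or Ddx3x). Ddx3x also lost its call without WT EphB2-positive replicate 1.

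A KO effect of the same sign but unequal size was shown by Kif12 and Fgfrl1. Kif12 (chromosome 4, 63165630 to 63172131, minus strand), a kinesin motor, stood at 302 and 284 CPM in WT and 39.4, 28.1 and 26.7 CPM in KO EphB2-positive cells, and at 268 and 243 CPM in WT and 5.76 and 7.0 CPM in KO EphB2-negative cells. KO lay below WT in both sorts, with effects of -3.23 and -5.31 and a difference of 2.08 ± 0.32 (edgeR adjusted p = 0.0092). Fgfrl1, an FGF receptor without a kinase domain, had effects of -0.71 and -3.04, and Ros1, a receptor tyrosine kinase, had its larger effect in EphB2-positive cells (-3.13 against -0.67).

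Of the genes higher in KO in both sorts, Fam162a, a mitochondrial protein induced by hypoxia, stood at 43.7 and 34.0 CPM in WT and 86.8, 107 and 86.4 CPM in KO EphB2-positive cells. EphB2-negative cells held 46.6 and 31.0 CPM in WT and 437 and 434 CPM in KO. The effect was thus larger in EphB2-negative cells (3.49 against 1.27). Capg, which caps actin filaments, and Agpat2, which makes phosphatidic acid, had the same form, with effects of 1.0 and 2.79 and of 0.88 and 2.33. Psat1, of serine synthesis, was the reverse, with 2.33 in EphB2-positive and 0.66 in EphB2-negative cells. Of these 7 genes of like sign, 1 (Fam162a) kept its call without WT EphB2-positive replicate 2, and 1 (Capg) without KO EphB2-negative replicate 2. Psat1 also lost its call without WT EphB2-positive replicate 1.

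A further 8 genes are named because they too kept their calls in every alternative, a choice made after their values were seen. Slc6a19, the neutral amino acid transporter of the brush border, had its effect in EphB2-positive cells. It stood at 30.0 and 52.3 CPM in WT and 2.0, 2.38 and 3.60 CPM in KO EphB2-positive cells, and at 143 and 237 CPM in WT and 188 and 279.5 CPM in KO EphB2-negative cells. Its effects were -3.90 and 0.30, and the EphB2-negative groups overlapped. Creb3l3, a transcription factor of liver and gut lipid metabolism, had effects of -2.14 and 1.23. Ush1c, the scaffold harmonin that links microvilli, had effects of -1.25 and 0.59, and Eps8l2, an actin regulator, -1.14 and 0.84. For Vipr1, a receptor of vasoactive intestinal peptide, the effects were -1.14 and 1.02, and for Cda, cytidine deaminase, -2.38 and 0.67. Pdlim2, a PDZ and LIM domain protein, and Acaa1a, a thiolase of peroxisomal fatty acid oxidation with the close copy Acaa1b, had effects of -3.08 and 1.39 and -1.02 and 0.91. Apart from Slc6a19, each was lower in every KO than in every WT EphB2-positive library and higher in every KO than in every WT EphB2-negative library.

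Genes of absorptive enterocytes as a list lay below 0. Of 32 tested, 14 passed below 0 and 0 above, against 5.81% of all genes tested that passed below 0, and 32 of 32 estimates were negative. Their median KO effect was -1.41 in EphB2-positive and 0.75 in EphB2-negative cells, with a median difference of -2.32 beside 0.06 for all genes. Without WT EphB2-negative replicate 1 the median effect in EphB2-negative cells was 0.39, the median difference -2.05 and 15 members passed below 0. Leaving out each library in turn gave 2 to 26 members below 0. The list holds Dgat1 and Prap1, described above, and shares Alpi and Mep1a with the brush border list.

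Of the brush border hydrolases, the digestive enzymes of the microvillus, 7 of 16 passed below 0, against 5.81% of all genes tested, and 0 above. Their median effects were -2.12 in EphB2-positive and 0.37 in EphB2-negative cells, and the latter was -0.09 without WT EphB2-negative replicate 1, when 5 passed. Intestinal alkaline phosphatase, Alpi, stood at 58.0 and 114 CPM in WT and 16.7, 19.5 and 15.9 CPM in KO EphB2-positive cells. In EphB2-negative cells it stood at 448 and 889 CPM in WT and 787 and 1276 CPM in KO, where the groups overlapped, and its difference of -2.92 ± 0.57 (edgeR adjusted p = 0.018) lost its call without WT EphB2-negative replicate 1. Mep1a, meprin alpha, had effects of -3.40 and 0.00. Mgam, maltase-glucoamylase, was unlike Alpi and Mep1a in that KO was higher in both sorts, at 974, 885 and 935 against 616 and 635 CPM in EphB2-positive and 1300.2 and 1622 against 392 and 478 CPM in EphB2-negative cells.

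Of genes of lipid absorption and the apolipoproteins, 6 of 20 passed below 0, against 5.81% of all genes tested, and 0 above. Their median effects were -1.03 and 0.81. Plin2, which coats lipid droplets, stood at 126 and 181 CPM in WT and 57.4, 39.5 and 50.4 CPM in KO EphB2-positive cells, and at 378 and 559 CPM in WT and 578 and 777 CPM in KO EphB2-negative cells. KO was below WT in one sort and above it in the other, with a difference of -2.18 ± 0.36. Of fatty acid oxidation, ketogenesis and PPAR genes 7 of 28 passed below 0, against the same 5.81%, and 0 above. The median effects were -1.0 and -0.28. Slc25a20, the carnitine carrier of mitochondria, had effects of -1.10 and 0.50 and Hadh, of beta-oxidation, -1.45 and -0.24.

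The conjugating and P450 enzymes included 5 of 24 genes that passed below 0, against 5.81% of all genes tested, and 0 above. Their median difference was -0.58, or -0.66 without WT EphB2-negative replicate 1. Cyp4f14, a fatty acid hydroxylase, and Sult2b1, a sterol sulfotransferase, were higher in KO in EphB2-negative cells, with effects of -0.81 and 2.05 and -0.71 and 2.44. Sult1b1, a phenol sulfotransferase, instead had negative effects in both sorts, -3.87 and -0.65. EphB2-positive cells held 8.01, 5.24 and 1.54 CPM in KO against 54.5 and 85.8 CPM in WT. The EphB2-negative groups overlapped, at 86.4 and 147.1 CPM in KO and 137 and 229.4 CPM in WT. Of arginine and urea cycle genes, 4 of 13 passed below 0 and 1 above, Odc1, against 5.81% and 6.54% of all genes tested. Their median difference was -0.47, or -0.37 without WT EphB2-negative replicate 1. Nags, which makes the activator of the urea cycle, had effects of -0.57 and 0.90, Slc7a9, a cystine and basic amino acid transporter, -1.08 and 0.98, and Odc1, of polyamine synthesis, 0.79 and -0.39; the others were Slc7a7 and Prodh. Of suckling endocytosis genes 3 of 20 (Amn, Ctsd and Prdm1) passed below 0 and 1 (Tfrc) above, against 5.81% and 6.54% of all genes tested. The lysosomal protease Ctsd had effects of 0.02 and 1.26, and Tfrc, the transferrin receptor, 0.79 and -1.07. Without WT EphB2-negative replicate 1, 4 of the 20 passed below and 3 above 0. Among subunits of oxidative phosphorylation 3 of 28 passed below 0 against 5.81% of all genes tested (18 without WT EphB2-negative replicate 1), with Cox5b at -0.15 and 0.95 and Cox4i1 at -0.10 and 0.79. Of 16 genes first given with values in these 3 paragraphs, 1 (Sult2b1) kept its call without WT EphB2-positive replicate 2 and 0 without KO EphB2-negative replicate 2. Without WT EphB2-positive replicate 1 or KO EphB2-positive replicate 2, 7 and 8 did.

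Crypt genes lay mainly above 0. Of 27 intestinal stem cell genes, 5 passed above 0 (Sox9, Ephb2, Hopx, Slc12a2 and Lrig1) and 1 below (Tert), against 6.54% and 5.81% of all genes tested. Their median effects were -0.32 in EphB2-positive and -1.57 in EphB2-negative cells, and the median difference of 1.42 was 0.68 without WT EphB2-negative replicate 1, when 9 passed above and 2 below 0. Sox9, a transcription factor of crypt progenitors, stood at 106 and 70.1 CPM in WT and 51.4, 54.8 and 61.2 CPM in KO EphB2-positive cells, and at 81.7 and 37.3 CPM in WT and 5.12 and 3.82 CPM in KO EphB2-negative cells. KO was lower in both sorts and more so in EphB2-negative cells, with a difference of 3.06 ± 0.58. Hopx, a marker of reserve stem cells, had effects of -0.13 and -2.01. Of Wnt feedback and target genes 4 of 19 passed above 0, against 6.54% of all genes tested, and 0 below. They were Ccnd1, Mmp7 and, shared with the stem cell list, Sox9 and Ephb2. The median difference of the Wnt list was 1.16, or 0.85 without WT EphB2-negative replicate 1. Ccnd1, cyclin D1, stood at 180.3 and 170.2 CPM in WT and 285, 356 and 375 CPM in KO EphB2-positive cells, and 113 and 51.3 CPM in WT and 39.7 and 36.9 CPM in KO EphB2-negative cells, so its effects had opposite signs (0.95 and -1.10).

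Of 32 cell cycle genes, 9 passed above 0, against 6.54% of all genes tested, and 0 below, and 32 of 32 estimates were positive. Their median effect was 0.05 in EphB2-positive cells and -1.19 in EphB2-negative cells, with a median difference of 1.35, or 0.51 without WT EphB2-negative replicate 1. In sum these genes stood at 4714 and 1949 CPM in replicates 1 and 2 of that group, against 1484 and 1247 CPM in KO EphB2-negative libraries. Top2a, the topoisomerase of dividing cells, stood at 634 and 539 CPM in WT and 783, 749 and 788 CPM in KO EphB2-positive cells. In EphB2-negative cells it stood at 399 and 199.9 CPM in WT and 122 and 94.2 CPM in KO, and the groups did not overlap in either sort. Esco2, needed for the cohesion of sister chromatids, had effects of -0.01 and -3.02 and Cenpe, a centromere motor, 0.10 and -1.81. In a separate list of G1 cyclins, CDK inhibitors and Myc genes 2 of 17 (Ccnd1 and Ccnd2) passed above 0. Another 3 (Cdkn1a, Mycn and Mxd1) passed below 0, where the shares of all genes tested were 6.54% above and 5.81% below. Cdkn1a, the inhibitor p21, had effects of -0.94 and 0.57.

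Of PRC2 subunits, which methylate histone H3 at repressed genes, 3 of 11 passed above 0, against 6.54% of all genes tested, and 0 below. Eed had effects of 0.30 and -1.24, Rbbp7 of 0.20 and -1.06 and Suz12 of 0.68 and -0.06. Of Eph receptors and ephrins 2 of 11 passed in each direction, against 6.54% of all genes tested above and 5.81% below 0. Ephb4, with effects of -0.45 and -2.11, lay above 0 with Ephb2. The ligand Efna1, with -0.86 and 0.96, lay below 0 with Epha1. Grb10, an imprinted adaptor of growth signalling, and Hmga2, a chromatin protein of fetal cells, had effects of -0.37 and -2.03 and 0.09 and -2.64. The receptor Notch1 had effects of -1.10 and -0.17. It was the 1 of 16 genes of its pathway that passed, where 5.81% of all genes tested passed below 0. The median difference of these 16 genes was -0.09, or -0.24 without WT EphB2-negative replicate 1. None of the 16 crypt and growth genes given with values in these 3 paragraphs, with Ephb2 counted among them, kept its call without WT EphB2-positive replicate 2 or without KO EphB2-negative replicate 2, and all 16 kept it without WT EphB2-negative replicate 1. Without WT EphB2-positive replicate 1 or KO EphB2-negative replicate 1, 4 and 5 kept it.

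**Figure D4:**
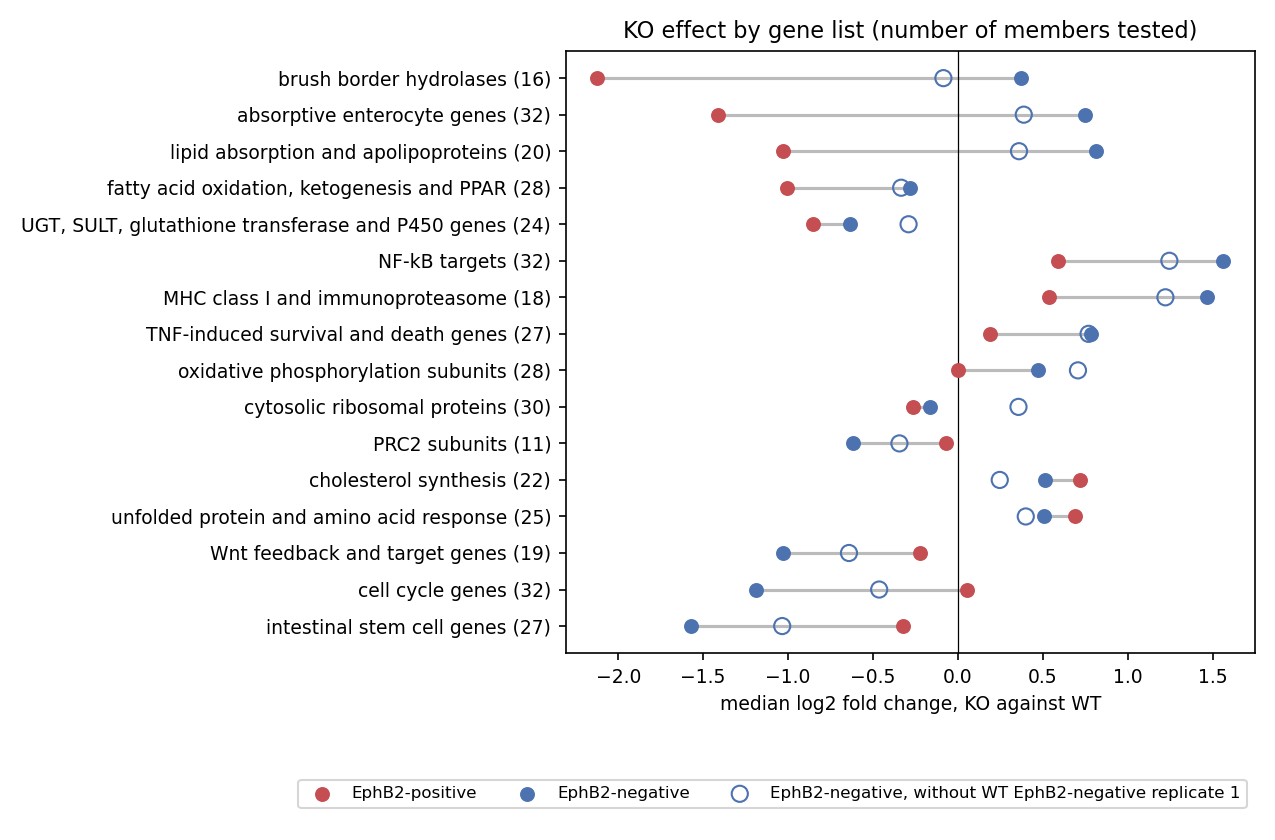
Median log2 fold change of KO against WT over the tested members of 16 gene lists (numbers in brackets) in EphB2-positive cells (red) and EphB2-negative cells (blue), with open circles for EphB2-negative cells without WT EphB2-negative replicate 1. Enterocyte lists lie at lower medians in EphB2-positive cells, from -2.12 for brush border hydrolases, and stem cell and cell cycle lists at lower medians in EphB2-negative cells.

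The stem cell and enterocyte sums moved with the groups, so the fit was repeated with a crypt score as a covariate. The score was the mean log2 CPM over the stem cell genes, less that over the absorptive enterocyte genes, and it is built from genes named here. It called 884 genes, of which 282 were among the 1430 and 15 of the 1430 changed sign. With it the median difference of cell cycle genes was -0.30 and of stem cell genes -0.21, both turned in sign, and that of absorptive enterocyte genes -0.50. All 6 genes lower in EphB2-positive and higher in EphB2-negative cells, from Naprt to Prap1, kept their calls with this covariate, as did Ipo7, Mat2a, Ccnd2 and Clcn2. Of the 16 crypt and growth genes 1 (Efna1) did, and of the 16 enterocyte genes 4 did.

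Promoters of called genes were read from RefSeq on GRCm38.p6, as 250 bases before and 50 after each gene start, for 8881 of the 11577 genes tested. Both strands were searched for 11 motifs, whose matches may overlap: the HNF4 letters CAAAGTCCA, the E2F letters TTTNNCGC, the NF-κB letters GGANNTTCC, the CDX2 letters TTTATGG, the ETS letters CCGGAAG, the MYC E-box letters CACGTG, the STAT letters TTCNNNGAA, the HNF1 letters GTTAATNNT, the GATA letters AGATAA, the CHR letters TTTGAA and the CCAAT box. The motifs shown were chosen after their shares were seen. A gene was counted when any of its promoters held a match, so shares of genes and of promoters are unlike units. HNF4 letters were found for 12 of 531 genes below 0 (2.26%) and 2 of 586 genes above 0 (0.341%). They were found for 0.664% of genes tested and in 0.475% of all 32851 promoters. E2F letters were found for 14.5% of genes above 0 and 8.29% of genes below 0. Their shares were 9.77% of genes tested and 5.17% of all promoters. NF-κB letters were found for 4.27% of genes above and 5.46% of genes below 0. Here the shares were 5.55% of genes tested and 4.26% of all promoters. A match describes letters and is not a measured binding site.

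These 4 promoters show such matches, in capitals, in genes on either side of 0, each printed in the direction of its gene. Alpi (chr1:87101557-87101856, minus strand) and Sult1b1 (chr5:87536173-87536472, minus strand, 1 of 2 starts of that gene) lay below 0 and hold the HNF4 letters, 19 bases upstream of the start in Alpi and 25 bases past the start in Sult1b1. Ipo7 (chr7:110018065-110018364, plus strand) and Ppat (chr5:76951529-76951828, minus strand) lay above 0 and hold the E2F letters on either strand, 1 match in Ipo7 at 2 bases past the start and 2 matches in Ppat.
Alpi: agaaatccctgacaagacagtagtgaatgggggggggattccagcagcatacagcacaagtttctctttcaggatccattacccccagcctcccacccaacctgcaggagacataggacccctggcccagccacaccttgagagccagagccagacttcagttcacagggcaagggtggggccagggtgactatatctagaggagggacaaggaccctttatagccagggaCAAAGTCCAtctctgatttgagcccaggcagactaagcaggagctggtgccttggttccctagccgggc
Sult1b1: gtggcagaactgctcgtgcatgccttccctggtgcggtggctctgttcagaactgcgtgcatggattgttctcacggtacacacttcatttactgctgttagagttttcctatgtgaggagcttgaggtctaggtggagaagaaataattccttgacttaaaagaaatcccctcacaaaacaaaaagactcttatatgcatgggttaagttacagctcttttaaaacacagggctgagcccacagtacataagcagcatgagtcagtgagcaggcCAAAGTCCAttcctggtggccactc
Ipo7: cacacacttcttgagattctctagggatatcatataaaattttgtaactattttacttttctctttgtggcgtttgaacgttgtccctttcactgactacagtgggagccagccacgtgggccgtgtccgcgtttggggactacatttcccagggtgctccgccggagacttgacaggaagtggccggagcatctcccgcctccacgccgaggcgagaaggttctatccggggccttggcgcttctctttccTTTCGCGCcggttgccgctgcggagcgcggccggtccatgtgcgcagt
Ppat: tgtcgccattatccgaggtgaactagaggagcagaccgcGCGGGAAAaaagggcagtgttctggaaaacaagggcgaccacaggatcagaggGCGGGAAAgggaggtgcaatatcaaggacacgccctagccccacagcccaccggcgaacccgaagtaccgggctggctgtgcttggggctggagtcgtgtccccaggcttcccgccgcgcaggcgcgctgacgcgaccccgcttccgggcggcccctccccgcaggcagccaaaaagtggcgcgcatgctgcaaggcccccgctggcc

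The 32 NF-κB targets tested had median KO effects of 0.59 in EphB2-positive and 1.56 in EphB2-negative cells. The difference passed below 0 for 3 of them (Tnip1, Ccl20 and Bcl2l1), against 5.81% of all genes tested, and above 0 for 0, or for 4 below and 1 above without WT EphB2-negative replicate 1. Their median difference was -0.58, or 0.52 with the crypt score as a covariate. Tnip1, which restrains NF-κB signalling, stood at 45.2 and 60.2 CPM in WT and 46.0, 53.8 and 53.5 CPM in KO EphB2-positive cells, and at 52.5 and 55.2 CPM in WT and 136 and 160.5 CPM in KO EphB2-negative cells. The KO EphB2-negative libraries lay above all others, with a difference of -1.50 ± 0.25. Bcl2l1, which encodes the survival protein Bcl-xL, had effects of opposite sign (-0.75 and 1.16). Ccl20, a chemokine of the epithelium, stood at 21.1 and 89.8 CPM in the KO EphB2-negative libraries, a wide spread, and lost its call without WT EphB2-negative replicate 1.

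Of TNF survival and death genes 5 of 27 (Bcl2l1, Casp8, Ripk3 and Gsdmd among them) passed below 0, against 5.81% of all genes tested, and 0 above. Gsdmd, the pore protein of pyroptosis, had effects of 0.69 and 2.22, and Ripk3, the kinase of necroptosis, 0.57 and 1.64. Of the IL-22, IL-17 and STAT3 list 3 of 19 passed below 0, against 5.81% of all genes tested, and 0 above, or 4 below and 3 above without WT EphB2-negative replicate 1. Il18, an epithelial cytokine, stood at 3.44 and 4.93 CPM in WT and 10.7, 10.0 and 4.63 CPM in KO EphB2-positive cells, which overlapped, and at 12.8 and 26.1 CPM in WT and 274 and 274 CPM in KO EphB2-negative cells, which did not. The kinase gene Tyk2 of that list had effects of -0.56 and 0.75. Fosl2 of the AP-1 family, where 1 of 20 passed below 0 against 5.81% of all genes tested, had effects of 0.18 and 1.25.

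Of genes of MHC class I and the immunoproteasome 3 of 18 passed below 0 and 1 (Erap1) above. The shares of all genes tested were 5.81% below and 6.54% above 0. The median difference of this list was -0.57, or -0.54 without WT EphB2-negative replicate 1. H2-T3 had effects of -1.35 and 0.11, H2-Q4 of 0.32 and 1.68 and H2-Q2 of -0.63 and 1.47, which are uncertain because these genes have near-identical copies among which counting could split reads. Of 36 interferon response genes 1 passed below 0 (Ifit2, with effects of -0.90 and 0.93) and 0 above, or 3 in each direction without WT EphB2-negative replicate 1. Their median effects were 1.95 in EphB2-positive and 2.08 in EphB2-negative cells, the latter 1.55 without that library. Of all genes tested 5.81% passed below 0. Irf8, a transcription factor of that list, had effects of 1.22 and 1.99 and did not pass with all libraries (edgeR adjusted p = 0.063) but did without that library (edgeR adjusted p = 0.042). Antimicrobial and acute phase genes had median effects of 4.20 and 5.58. None of the 22 passed in edgeR (2 had an unadjusted p under 0.05, and DESeq2 called 3 and voom 0), and without WT EphB2-negative replicate 1, 5 passed above 0 and 1 below.

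Leukocyte markers were present in the EphB2-negative libraries and near 0 reads for Ptprc in the EphB2-positive ones. Summed pan-leukocyte genes (14 of 14 found) stood at 67.8 and 64.1 CPM in WT and 94.1, 94.8 and 112 CPM in KO EphB2-positive libraries. In EphB2-negative libraries they stood at 139.7 and 1285 CPM in WT and 1909 and 1472 CPM in KO. Ptprc, which encodes CD45, had 0, 0, 0, 0 and 1 reads in the EphB2-positive libraries, 17 and 346 in the WT EphB2-negative and 220 and 180 in the KO EphB2-negative libraries. None of the 14 genes passed in edgeR, DESeq2 or voom, 0 had an unadjusted p under 0.05, and 13 of them had a group with fewer than 4 reads. Of the neutrophil and macrophage list 1 of 20 passed below 0, against 5.81% of all genes tested, and 0 above. It was Itgam, the integrin CD11b, at 3.65 and 16.9 CPM in WT and 42.9 and 84.1 CPM in KO EphB2-negative cells. With a pan-leukocyte score (the list's mean log2 CPM) as a covariate, 89 of the 94 called genes given with values kept their calls, and 1194 of the 1430 were called again. With the crypt score as a covariate 50 of the 94 kept theirs, among them 2 (Bcl2l1 and Ripk3) of the 13 genes named for inflammation and cell death. Of these 13, Itgam included, none kept its call without WT EphB2-positive replicate 2 or KO EphB2-negative replicate 2, and 12 did without WT EphB2-negative replicate 1. Without KO EphB2-positive replicate 2 or WT EphB2-positive replicate 1, 2 and 3 did.

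Of cholesterol synthesis genes 2 of 22 passed above 0, against 6.54% of all genes tested, and 0 below. Their median effects were 0.72 in EphB2-positive and 0.51 in EphB2-negative cells, and without WT EphB2-negative replicate 1, 6 passed above and 1 below 0. Idi1, of isoprenoid synthesis, was among them, with effects of 1.02 and -0.08. Of the unfolded protein and amino acid response 3 of 25 passed above 0, against 6.54% of all genes tested, and 0 below. The median effects were 0.69 and 0.51, and the median difference was 0.28, or 0.47 without WT EphB2-negative replicate 1. The 3 were Psat1, given above, and the endoplasmic reticulum chaperones Pdia4 (0.48 and -0.43) and Hsp90b1 (0.60 and -0.31).

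Secretory lineage genes had wide spreads. Of 14 Paneth genes 1 passed above 0 with all libraries, Mmp7, which activates defensins. The median difference of the list was 2.99, or 3.79 without WT EphB2-negative replicate 1. Of all genes tested 6.54% passed above 0 with all libraries. Mmp7 stood at 6.39 and 6.41 CPM in WT and 92.1, 94.3 and 161 CPM in KO EphB2-positive cells. In EphB2-negative cells it stood at 9.13 and 23.2 CPM in WT and 37.8 and 46.5 CPM in KO. Defa3, a defensin with near-identical copies, and Ang4 did not pass with all libraries (edgeR adjusted p = 0.12 and 0.11). Their differences were 3.32 and 4.46, or 4.18 and 5.39 without WT EphB2-negative replicate 1. The latter rest on replicate 2 as the only WT EphB2-negative library. Summed Paneth genes stood at 186 and 5875 CPM in WT EphB2-negative replicates 1 and 2 and at 617 and 522 CPM in KO EphB2-negative libraries. None of 20 goblet genes passed in edgeR with all libraries (3 had an unadjusted p under 0.05, and DESeq2 and voom called 0). Their median difference was 1.66, or 2.41 without WT EphB2-negative replicate 1, which rests on replicate 2 alone. Summed goblet genes stood at 3381 and 26130 CPM in WT EphB2-negative replicates 1 and 2 and at 6745 and 9579 CPM in KO EphB2-negative libraries. Agr2, which folds mucins, stood at 138 and 1059.8 CPM in WT EphB2-negative replicates 1 and 2 and at 138 and 219.7 CPM in KO EphB2-negative libraries, so the groups overlapped and the WT replicates lay far apart. Ccl6 had a like spread (80.4 and 569 CPM in WT EphB2-negative libraries). Of 22 enteroendocrine genes, the peptide genes Pyy, with effects of -2.65 and -0.80, passed below 0 and Tac1, with 2.14 and -0.98, above 0. The shares of all genes tested were 5.81% below and 6.54% above 0. Gcg, which encodes proglucagon, had effects of -1.63 and -3.20 and did not pass with all libraries (edgeR adjusted p = 0.051) but passed above 0 without WT EphB2-negative replicate 1 (edgeR adjusted p = 0.021), when 4 of the 22 passed above and 1 below 0. Among 8 tuft cell genes 1 passed, Alox5ap, which lay below 0, against 5.81% of all genes tested. It had 2 reads in all over the KO EphB2-positive libraries and 25.0 and 32.5 CPM in KO EphB2-negative cells. The median difference of the tuft list was -3.48, or -2.86 without WT EphB2-negative replicate 1. None of the 7 genes given with values that passed in the synthesis and secretory groups, Alox5ap included, kept its call without WT EphB2-positive replicate 1 or 2, KO EphB2-positive replicate 2 or KO EphB2-negative replicate 2.

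In all, 13 of the lists with tested members held no gene that passed in edgeR. Beside the antimicrobial, pan-leukocyte and goblet genes they were the markers of T cells (18 tested), B cells (5), mast cells (10), stromal cells (9), endothelium (1) and enteric neurons and glia (2). The others were MHC class II (9), Hedgehog genes (6), fetal spheroid and repair markers (13) and cytosolic ribosomal proteins (30). An unadjusted p under 0.05 was seen for 2 Hedgehog, 2 fetal and 2 stromal genes and for 0 in each other list of these 10, voom called 1 Hedgehog gene and DESeq2 1 stromal gene. Ribosomal protein genes had a median difference of -0.07, and 15 of them passed below 0 without WT EphB2-negative replicate 1. In the same fit 1 MHC class II gene, 1 Hedgehog gene and 1 fetal gene passed above 0, and 1 Hedgehog, 2 fetal and 1 stromal gene below 0.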

How the data were processed

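The deposited tables hold whole-number counts of reads per gene for 24421 gene symbols, made with HTSeq per the submitters' processing notes, which also list CASAVA 1.4, FastQC, Bowtie2, DESeq2 and the build mm10. Annotation and strand setting: not given in the sources used here. Overlapping or antisense genes therefore cannot be told apart. Per the labels' protocols, cDNA was amplified by PCR before sequencing. The 5 summary lines were left out; reads in no feature made up 9.97% to 14.7% and ambiguous reads 1.89% to 2.28% of each library's reads in genes and those 2 lines.

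Groups came from the titles. The fit used edgeR 4.0.16 under R 4.3.3 (TMM, filterByExpr with the groups, robust quasi-likelihood test, two-sided, 5 residual degrees of freedom), with Benjamini-Hochberg adjustment over 11577 genes and calls under 0.05. Values are CPM on the TMM scale; effects and differences are log2 fold changes, ± SE where given (the estimate over the square root of F). Across libraries, 3 reads are 1.37 to 2.00 CPM. Alternatives were DESeq2 1.42.0 and its size factors, 2 other filters, limma 3.58.1 voom, 2 replicate blocks, 2 marker scores and leaving out each library. Scripts were tested on simulated counts. Figures used matplotlib 3.10.9.

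The members, the 42 gene lists and the alternatives, the crypt score among them, were chosen with earlier results of these data known. Named genes were Nfkbia, Ephb2, and, among called genes with at least 10 CPM in a group, the 6 of smallest p in each class of opposite sign and the 5 in each other class. The first 3 members by p of each of the 30 lists described were added; some genes the rule takes are not printed, which was decided with values in view. List members named without values were chosen after their values were seen. Acaa1a, Cda, Creb3l3, Eps8l2, Pdlim2, Slc6a19, Ush1c and Vipr1 were named outside the rule. Positions are from GENCODE for GRCm38.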

Additional observations from a re-analysis of the deposited data

Results flagged for a closer look

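A test of the difference itself (edgeR's quasi-likelihood test of the interaction, Benjamini-Hochberg adjusted) passed for 1430 genes. The values below are the differences of the log2 KO effect, EphB2-positive minus EphB2-negative, for the 94 of these genes given with values in the report.

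For genes with effects of opposite sign the differences were -2.56 for Naprt, -2.65 for Smim24, -4.56 for Slc34a2, -2.06 for Smpd2, -2.32 for Prap1 and -2.66 for Dgat1. In the reverse class they were 2.04 for Ipo7, 2.26 for Mat2a, 2.81 for Cep55, 1.70 for Trmt6 and 1.67 for Nol11. Genes past the fold of 1.5 in EphB2-negative cells alone had 2.21 for Ccnd2, 2.57 for Ppat and 2.17 for Aasdhppt. They also had -2.53 for Clcn2, -2.17 for Gjb1, -1.92 for Ckmt1 and -2.50 for Ckb. Genes past the fold in EphB2-positive cells alone had -2.83 for Tmem86a, -3.48 for Cst6 and -2.41 for Slc6a4. Others of that kind had -3.54 for Mettl7b, -2.29 for Amn, 2.86 for Lrp8, 2.46 for Mtap, 1.41 for Tmprss2 and 1.19 for Ddx3x. These classes allow an effect under the fold in the other sort, such as -0.55 for Ckb and -0.52 for Ddx3x. With like signs they were 2.33 for Fgfrl1, 2.08 for Kif12, -2.46 for Ros1, -2.22 for Fam162a, -1.79 for Capg, -1.45 for Agpat2 and 1.66 for Psat1. The genes named for keeping every call had -1.93 for Acaa1a, -3.05 for Cda, -3.38 for Creb3l3, -1.98 for Eps8l2, -4.47 for Pdlim2, -4.20 for Slc6a19, -1.83 for Ush1c and -2.17 for Vipr1.

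Of enterocyte genes, the differences were -2.92 for Alpi, -3.40 for Mep1a, -1.17 for Mgam, -2.18 for Plin2, -1.60 for Slc25a20, -1.22 for Hadh, -2.86 for Cyp4f14, -3.15 for Sult2b1 and -3.22 for Sult1b1. They were -1.47 for Nags, 1.18 for Odc1, -2.06 for Slc7a9, 1.86 for Tfrc, -1.23 for Ctsd, -1.10 for Cox5b and -0.89 for Cox4i1. Of crypt and growth genes, they were 1.80 for Ephb2, 1.88 for Hopx, 3.06 for Sox9, 2.05 for Ccnd1, 3.02 for Esco2, 1.91 for Cenpe, 1.87 for Top2a and -1.52 for Cdkn1a. They were 1.55 for Eed, 1.27 for Rbbp7, 0.74 for Suz12, -1.82 for Efna1, 1.66 for Ephb4, 1.66 for Grb10, 2.73 for Hmga2 and -0.94 for Notch1.

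Inflammation and cell death genes had -1.50 for Tnip1, -3.03 for Ccl20, -1.91 for Bcl2l1, -1.53 for Gsdmd, -1.07 for Ripk3, -1.46 for H2-T3, -1.35 for H2-Q4 and -2.10 for H2-Q2. Others of that group had -2.84 for Il18, -1.31 for Tyk2, -1.83 for Ifit2, -1.07 for Fosl2 and -3.38 for Itgam. Synthesis and secretory genes had 1.10 for Idi1, 0.91 for Pdia4, 0.91 for Hsp90b1, -1.85 for Pyy, 3.13 for Tac1, 2.78 for Mmp7 and -4.44 for Alox5ap, of which the last rests on a group with 2 reads and its fitted size is not a bound.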

How the results depend on the processing

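Beside the 1430 calls (757 above and 673 below 0), DESeq2's size factors, no filter, a stricter filter, DESeq2 and voom gave 1439, 1337, 1433, 1281 and 1117 calls. Leaving out each library in turn gave 32 to 3996 calls, 6 to 2129 above and 26 to 1867 below 0; where this left a group with 1 library, that library is assumed to vary like the others. The calls were fewest without WT EphB2-positive replicate 2 (32) and KO EphB2-negative replicate 2 (40) and most without WT EphB2-negative replicate 2 (3996); the cause was not tested. None of the 1430 changed sign in the 9 fits that left out a library. The crypt score covariate gave 884 calls, 412 above and 472 below 0, and the pan-leukocyte score 1021 below 0 among 1981. Of the 94 genes given with values that passed, the number that kept their call ran from 25 (without WT EphB2-positive replicate 2) to 94 (stricter filter), and none reversed.

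Whether the replicate numbers in the titles pair the samples could not be told from correlations of deviations from group means. In a group of 2 libraries the deviations mirror each other, so each correlation recurs with the other sign. Same-numbered libraries gave 0.13 for WT, where libraries of 1 number also share a code in the names of their files. KO replicates 1 and 2 gave 0.04 and -0.07. A replicate block on the numbers in the titles gave 895 calls, 435 above and 460 below 0. Pairs by that code gave 0.13 for WT, the same pairs as by number, and 0.07 and 0.11 for KO. A block on the code gave 1014 calls, 476 of them above 0. Each library whose code has a partner correlated best with that partner. With mirrored deviations this cannot decide the pairing either, and the labels do not give it. Of the 94 genes, 82 kept their call with the block on the numbers and 83 with the block on the code. Tac1, Pdia4, Hsp90b1, Alox5ap, Suz12, Notch1, Cox4i1 and Ripk3 did not pass with either block, nor Slc7a9, Hmga2, H2-T3 and Ifit2 with the first, nor Odc1, Tyk2 and Fosl2 with the second. With either block 1 of the 25 unfolded protein and amino acid response genes passed above 0, beside 3 without one.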
